A study of Neurospora crassa with 12 samples.

Results

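Of 10592 genes in the count table of germinating Neurospora crassa conidia, 72 were selected on their measured levels as abundant transcripts of fresh conidia that were moderately lower afterwards. A gene was taken when its mean in stage 1 reached 100 CPM and the largest of its means in stages 2, 3 and 4 was at most 1/4 but above 1/16 of that mean. CPM is the estimated read count of a gene per 1000000 counts of its library. The library sum leaves out the 2 rRNA genes NCU17319 and NCU15719. The libraries came from strain FGSC2489, mating type A, grown on cellophane. By the growth protocol the medium was Bird medium, a medium for asexual growth, at 37 °C. Per the study's methods, growth was under continuous white light. The labels put the 12 libraries in 4 groups of 3 each by time, called stages here. In the order of the study's sampling these are fresh conidia (stage 1), first polar growth (stage 2), extension of the germ tube (stage 3) and first branching of the hypha (stage 4). Plates were taken once most of the active spores had reached a stage, so every library mixes spores of several states. Plates were pooled within a replicate. The sample titles give 15, 60, 120 and 240 min for the 4 stages and the time point tags 15, 120, 240 and 360 min, which puts the libraries in the same groups. The source name speaks of potato dextrose agar, and the tags' times are those the study's methods give for that medium at a lower temperature. The growth protocol and the titles' times belong to Bird medium at 37 °C. The labels thus conflict on medium and temperature.

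Conidia are the asexual spores of the fungus, and they are shed with a store of messenger RNA made while they formed. On a nutrient medium a conidium swells, pushes out a germ tube and becomes a branching hypha, and stored messages are replaced by those of growth. Conidia are orange from carotenoids, which end in neurosporaxanthin, and both carotenoid genes and the circadian clock of this fungus answer to light. Most of the 72 genes have no name: 13 carry a symbol in the RefSeq annotation (assembly NC12), and all 72 are annotated as protein-coding.

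Total counts lay between 42996748 and 71990884 per library, and rRNA genes took between 1.68% of them in stage 4 replicate 2 and 37.9% in stage 3 replicate 2. The labels of stages 2 and 4 separate libraries that did not stand apart in the data. Across genes, log-scale profiles correlated at 0.9956 to 0.9968 between stages 2 and 4, against 0.9960 to 0.9962 within stage 2 and 0.9950 to 0.9955 within stage 4. Stage 3 correlated with stage 2 at 0.972 to 0.979. Whether the libraries labelled stage 4 were of another stage than those labelled stage 2, or repeat libraries of the same one, cannot be told apart here. Stage 2 and stage 4 are used below only as names of the labelled groups. The 5 genes listed as conidial markers (eas, con-6, con-8, con-10 and con-13) summed to between 12091 and 15346 CPM in stage 1, 97.6 to 102 CPM in stage 2, 10.3 to 12.1 CPM in stage 3 and 79.9 to 112 CPM in stage 4, with con-13 at 0 after stage 1. The 5 genes found from a list of 6 for growing hyphae summed to 482 to 550 CPM in stage 1 and to at least 754 CPM in every later library. The 3 genes for aerial hyphae summed to 54.7 to 106, 19.7 to 35.5, 21.5 to 47.7 and 16.5 to 30.1 CPM in stages 1 to 4. The 6 for sexual structures summed to 190.2 to 243, 61.8 to 64.3, 62.8 to 63.8 and 63.7 to 66.4 CPM in these stages. Some of these sums rest on few genes. Stage 1 means were 11677 CPM for eas, 111 for poi-2 and 93.8 for asd-4, but at most 2.93 for the remaining sexual-structure genes. Of the hyphal genes, chs-3 averaged 34.9, 192, 152 and 195 CPM over the 4 stages, and chs-4 91.6, 89.6, 99.8 and 89.0 CPM. The aerial-hyphae gene acon-3 ran against its sum, at 1.29, 2.49, 4.85 and 2.66 CPM. The sums therefore do not describe each listed gene.

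Together the 72 genes took 3.39% to 3.67% of the library sum in stage 1, where that sum leaves out NCU17319 and NCU15719 as above. They took 0.492% to 0.502% in stage 2, 0.469% to 0.487% in stage 3 and 0.483% to 0.504% in stage 4. CPM is a share of a library, so less of a transcript, more of all other transcripts and fewer cells that hold it cannot be told apart in these bulk samples. The stage 1 means ranged from 103 to 4608 CPM with a median of 256 CPM, and 6 genes reached 1000 CPM, 16 lay between 500 and 1000 CPM and 30 below 200 CPM. The ratio of the stage 1 mean to the largest later mean ranged from 4.05 to 14.5, with a median of 6.06, and 52 genes had a ratio under 8. These values chose the genes and are a description with no test. On this CPM scale the largest of the later means fell in stage 2 for 17 genes, in stage 3 for 41 and in stage 4 for 14. Some of these orders rest on small differences, as in frq (NCU02265), counted under stage 3 with 53.6, 53.8 and 53.3 CPM in stages 2 to 4. The tests below scale libraries by TMM instead. There 25 genes (34.7%) were called higher in stage 3 than in stage 2, beside 20.8% of all genes tested.

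**Figure D1:**
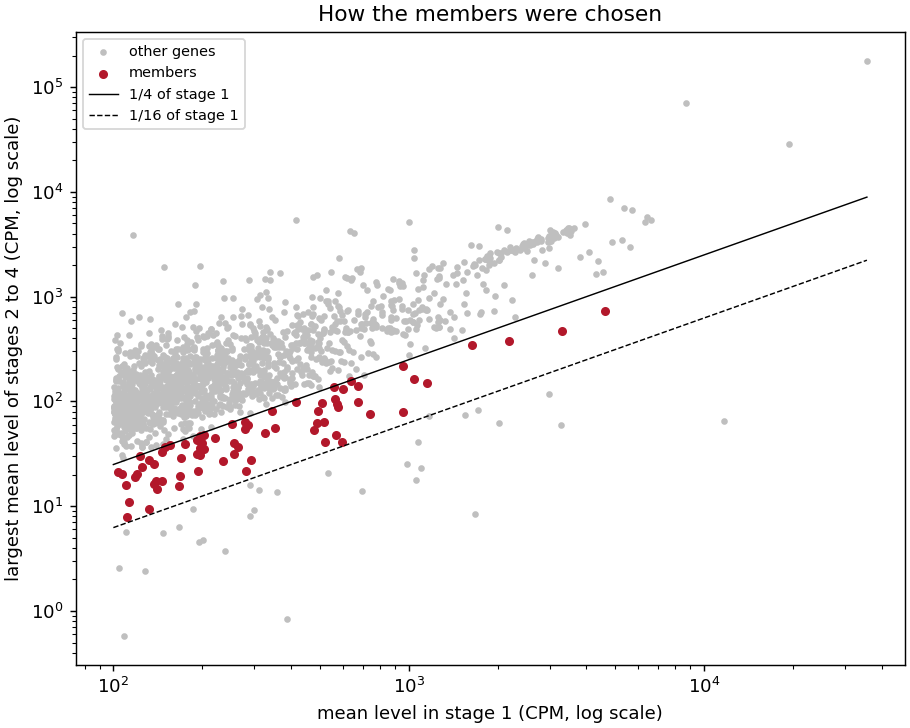
Mean level in stage 1 (x axis, CPM, log scale) against the largest mean of stages 2, 3 and 4 (y axis, CPM, log scale) for the 1693 genes with a stage 1 mean of at least 100 CPM. The 72 selected genes (red) lie between the line at 1/4 of the stage 1 mean (solid) and the line at 1/16 (dashed), with 1591 genes above the upper line and 30 on or below the lower one.

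Of the 1693 genes that reached 100 CPM in stage 1, 1591 kept a later mean above 1/4 and 30 fell to 1/16 or less in all later stages. Just inside the upper bound were NCU04368, NCU06061 and NCU04315 with ratios of 4.05, 4.08 and 4.08. Just outside it were NCU07434, NCU03254 and NCU00542 with 3.96, 3.96 and 3.94. At the lower bound NCU00293, NCU09409 and NCU07273 were inside with 14.5, 14.2 and 14.1. Outside were NCU00365, NCU08949 and poi-2 with 16.3, 18.3 and 19.4. At the minimum level NCU11260, NCU05492 and NCU04207 entered with 103, 107 and 110.2 CPM in stage 1. The genes acd-3, NCU03497 and NCU04256 stayed out with 99.1, 96.5 and 95.1 CPM.

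Levels of different genes were compared per 1000 bases of annotated gene span, introns included. On that scale mig-3 (NCU04452, chromosome IV, 3311170 to 3312789) was the most abundant, with 2041, 288, 252 and 293 CPM per 1000 bases in stages 1 to 4. It was followed in stage 1 by NCU07808 with 1502, mig-6 (NCU09285, chromosome VII, 75521 to 78828) with 1393 and NCU08402 with 1227 CPM per 1000 bases. The level in stage 1 then dropped to 587 CPM per 1000 bases for NCU07046, 502 for NCU02623, 402 for NCU02580, 325 for NCU00293, 302 for NCU05164 and 293 for mig-9 (NCU09141). The 4 leading genes therefore stood above the rest of the set in stage 1 by more than 2-fold on this scale.

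In single libraries mig-3 had 3913, 3031 and 2974 CPM in stage 1, 482, 473 and 443 CPM in stage 2, 408, 417 and 402 CPM in stage 3 and 513, 465 and 445 CPM in stage 4. NCU07808 (chromosome V, 217193 to 218645) had 2279, 2058 and 2211 CPM in stage 1, 311, 303 and 283 CPM in stage 2, 354, 431 and 351 CPM in stage 3 and 309, 288 and 287 CPM in stage 4. For both genes the stage 1 libraries were several times above all others, and for NCU07808 all 3 libraries of stage 3 lay above those of stages 2 and 4. The gene with the most counts, mig-6, had 4644, 4555 and 4626 CPM in stage 1, 718, 731 and 718 CPM in stage 2, 289, 337 and 295 CPM in stage 3 and 666, 756 and 699.8 CPM in stage 4. Its stage 3 libraries were the lowest of the 12.

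NCU02623 had 1248, 1109.6 and 1111 CPM in stage 1, 129, 136 and 137 CPM in stage 2, 147, 149 and 150.4 CPM in stage 3 and 144, 122 and 138 CPM in stage 4. NCU02580 had 1156, 1011 and 958 CPM in stage 1, 149.5, 169.7 and 164 CPM in stage 2, 114, 119 and 110.4 CPM in stage 3 and 162, 162 and 163 CPM in stage 4. NCU07046 had 1121, 842 and 900.4 CPM in stage 1, 56.5, 48.4 and 40.1 CPM in stage 2, 81.3, 78.1 and 78.5 CPM in stage 3 and 49.7, 60.03 and 36.6 CPM in stage 4. Stage 3 was the lowest stage of NCU02580 and the highest later stage of NCU07046, without overlap in either, whereas for NCU02623 it exceeded the other later libraries only narrowly. NCU04108, with 733, 721 and 760.5 CPM in stage 1, had 57.4, 59.1 and 58.98 CPM in stage 2, 79.1, 72.03 and 78.6 CPM in stage 3 and 58.8, 62.02 and 52.2 CPM in stage 4. NCU06189 had 671, 661 and 693 CPM in stage 1, 94.4, 100.4 and 92.8 CPM in stage 2, 106, 84.99 and 103 CPM in stage 3 and 96.7, 96.2 and 94.7 CPM in stage 4. Its 9 later libraries overlapped across all 3 stages. NCU00293, with the highest ratio of the set, had 663, 558 and 556 CPM in stage 1, 30.2, 28.8 and 31.1 CPM in stage 2, 37.4, 42.9 and 42.1 CPM in stage 3 and 33.2, 31.4 and 32.9 CPM in stage 4. Each of these 3 genes had at least 556 CPM in every stage 1 library and at most 106 CPM in every later one.

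**Figure D2:**
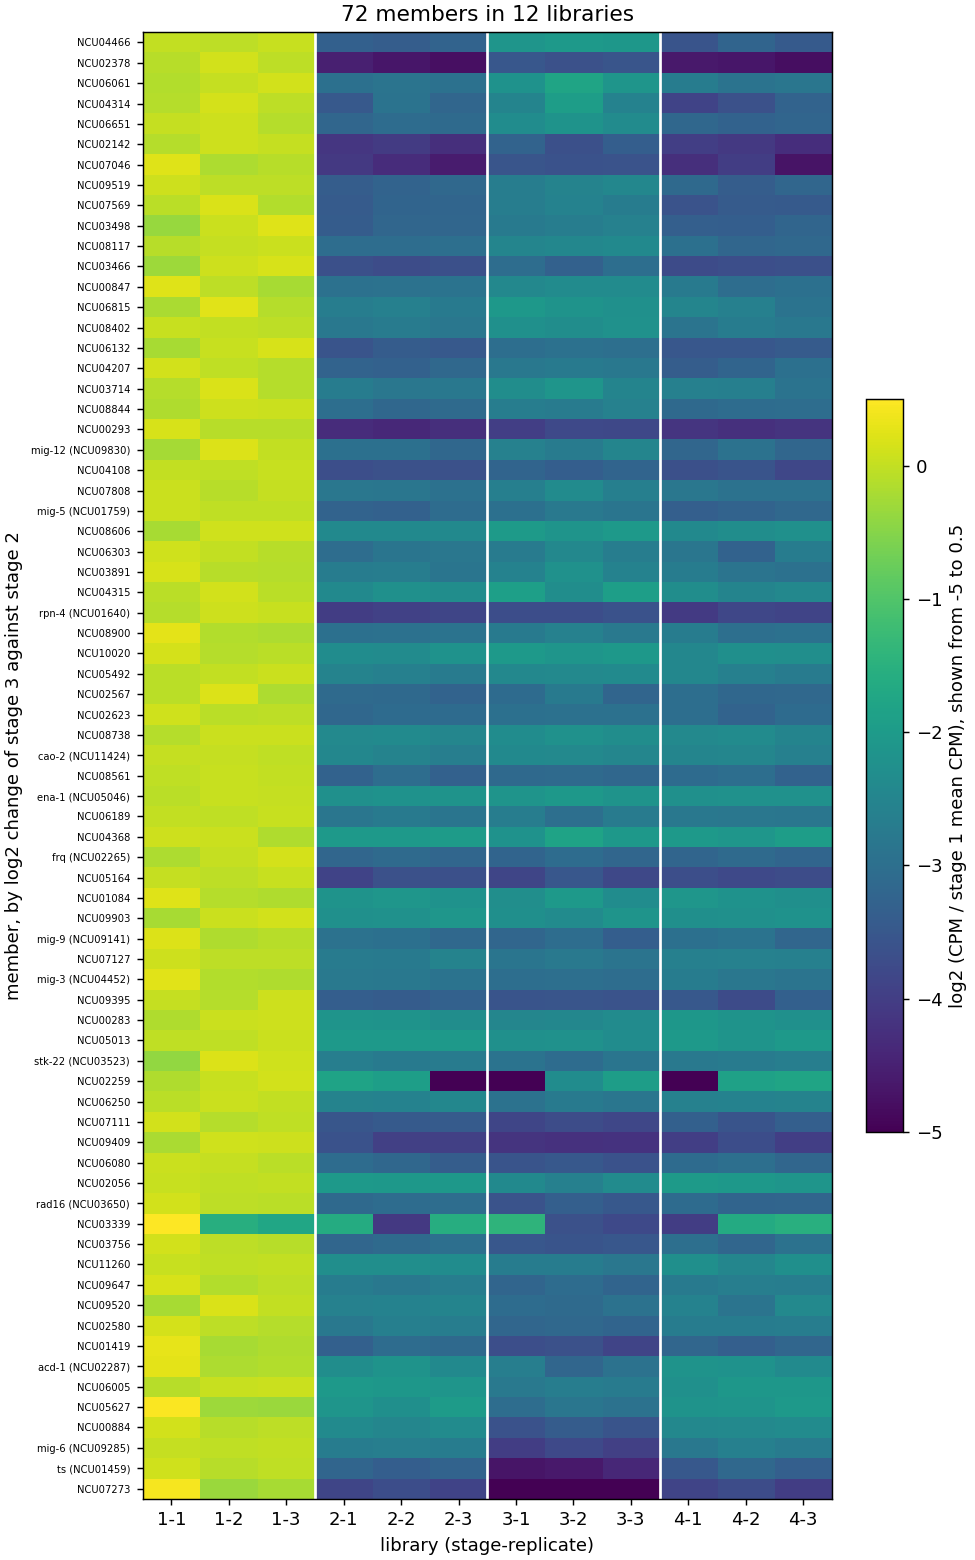
Each row is 1 of the 72 genes and each column 1 of the 12 libraries (stage and replicate), and colour gives log2 of the CPM over the gene's stage 1 mean, shown from -5 to 0.5. Rows run from the largest positive to the largest negative log2 change of stage 3 against stage 2, and the columns of stages 2 and 4 look alike while those of stage 3 are lighter at the top and darker at the bottom, and NCU03339 and NCU02259 show single libraries far from the others of their stage.

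The clock gene frq (NCU02265, chromosome VII, 3131640 to 3136464) encodes FREQUENCY, the negative element of the fungus's circadian oscillator, whose transcription the White Collar proteins WC-1 and WC-2 drive in response to light and to the clock. It had 423, 485 and 525 CPM in stage 1, 52.8, 55.6 and 52.4 CPM in stage 2, 51.4, 57.2 and 52.7 CPM in stage 3 and 51.9, 55.9 and 52.02 CPM in stage 4. Its later libraries overlapped between every pair of stages, with means of 53.6, 53.8 and 53.3 CPM in stages 2, 3 and 4. The log2 change of stage 3 against stage 2 was -0.05 with a 95% interval of -0.25 to 0.14 and that of stage 4 against stage 3 0.04 with a 95% interval of -0.15 to 0.24. Neither passed the test (edgeR adjusted p = 0.7 and 0.75).

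The carotenoid gene cao-2 (NCU11424, chromosome VII, 2483 to 4931), which encodes the oxygenase that cleaves torulene on the way to neurosporaxanthin, had 575, 567 and 552 CPM in stage 1, 104, 97.4 and 89.9 CPM in stage 2, 108, 106 and 101 CPM in stage 3 and 100.1, 101 and 92.8 CPM in stage 4. The later libraries overlapped here too, and the log2 change of stage 3 against stage 2 was 0.06 with a 95% interval of -0.09 to 0.22 (edgeR adjusted p = 0.51). Of the genes listed for light and carotenoids, 17 of 18 were found in the table by symbol, and frq and cao-2 are the 2 that met the rule. A further 6 reached 100 CPM in stage 1 with a later mean above 1/4: al-1, vvd, wc-1, phr, cry and csp-1. The remaining 9 were below 100 CPM in stage 1. Among the 17, stage 3 against stage 2 gave 6 higher and 2 lower genes with a median log2 change of 0.10, where 20.8% of all genes tested were higher and 18.2% lower. Stage 4 against stage 3 gave 2 higher and 6 lower with a median of -0.10, beside 18.2% and 20.8% of all genes tested. Stage 4 against stage 2 gave none. The 6 higher in stage 3 were the carotenoid biosynthesis genes al-1, al-2, al-3 and ylo-1, the light-adaptation photoreceptor vvd and bli-4. The 2 lower were bli-3 at -0.93 ± 0.15 and phr at -0.29 ± 0.06 (log2, SE, edgeR adjusted p = 3.1e-04 and 0.0023). For al-2, the phytoene synthase gene, the log2 change of stage 3 against stage 2 was 0.79 ± 0.07 (SE; edgeR adjusted p = 1.7e-06).

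The sodium pump gene ena-1 (NCU05046, chromosome VI, 3938154 to 3943089), a P-type ATPase of the plasma membrane, had 909, 986 and 969.9 CPM in stage 1, 202, 209 and 213 CPM in stage 2, 214, 226 and 213 CPM in stage 3 and 203, 204 and 206 CPM in stage 4. Its level stayed within 202 to 226 CPM in all 9 later libraries, and the log2 change of stage 3 against stage 2 was 0.01 with a 95% interval of -0.12 to 0.14. The gene named rpn-4 (NCU01640), whose namesake in Saccharomyces cerevisiae is a transcription factor of proteasome genes, had 485, 549 and 534 CPM in stage 1, 32.9, 34.2 and 36.01 CPM in stage 2, 40.3, 40.4 and 42.96 CPM in stage 3 and 31.3, 36.6 and 35.4 CPM in stage 4. All 3 libraries of stage 3 lay above those of stages 2 and 4, but the log2 change of 0.21 ± 0.08 (log2, SE, edgeR adjusted p = 0.064) did not pass the test. For stk-22 (NCU03523), a serine/threonine kinase gene by its name, the values were 442, 673 and 621 CPM in stage 1, 92.5, 85.7 and 88.04 CPM in stage 2, 77.3, 69.2 and 80.1 CPM in stage 3 and 84.9, 88.5 and 92.5 CPM in stage 4. Stage 3 lay below stage 2 in every library without passing the test, at a log2 change of -0.28 ± 0.14 (log2, SE, edgeR adjusted p = 0.12).

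The repair gene name rad16 (NCU03650) belongs to nucleotide excision repair genes in both budding and fission yeast. Its libraries had 158, 142 and 139 CPM in stage 1, 16.8, 17.5 and 17.8 CPM in stage 2, 12.2, 14.6 and 13.1 CPM in stage 3 and 17.4, 15.7 and 15.8 CPM in stage 4. Stage 3 was lower than stage 2, with 11.6 ± 0.792 TMM-scaled CPM in stage 3 and 15.7 ± 0.405 in stage 2 (SD, n = 3 each), a log2 change of -0.45 ± 0.06 (log2, SE, edgeR adjusted p = 1.1e-04). Also lower was acd-1 (NCU02287), with 21.1, 14.6 and 17.3 CPM in stage 3 against 26.7, 29.5 and 25.2 CPM in stage 2 and 159, 117 and 119.6 CPM in stage 1, at a log2 change of -0.67 ± 0.14 (log2, SE, edgeR adjusted p = 0.002). Of the symbols beginning with mig, mig-12 (NCU09830) and mig-5 (NCU01759) were higher in stage 3 than in stage 2, at log2 changes of 0.38 ± 0.13 (log2, SE, edgeR adjusted p = 0.034) and 0.28 ± 0.07 (log2, SE, edgeR adjusted p = 0.0049). In contrast, mig-6 and mig-3 were lower, and mig-9 did not pass the test, at -0.23 ± 0.11 (log2, SE, edgeR adjusted p = 0.11).

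The rule used the means of stages 2, 3 and 4 through the largest of them. It caps how high any of these stages can lie but not how low the other two can, and it treats the 3 stages alike. The differences below are therefore not free of the rule, and the counts of called genes are given as a description. They come from the quasi-likelihood test of edgeR across 8330 genes, with Benjamini-Hochberg adjustment over all of them and 0.05 as the threshold. All 72 genes passed the filter on low counts, and the lowest count of any of them in a library was 39. In stage 3 against stage 2, 25 of the 72 genes (34.7%) were higher and 24 (33.3%) lower, where 20.8% of all genes tested were higher and 18.2% lower. The median log2 change was 0.04 over the 72 genes and 0.00 over all genes. The 3 libraries of stage 3 did not overlap the 3 of stage 2 in 58 of the 72 genes (80.6%) and in 54.9% of all genes tested. When libraries were scaled by their totals alone the split was 9 higher and 19 lower. Over all 8330 genes tested it was then 625 higher and 874 lower. Stage 3 replicate 2, which had the most rRNA, also had the lowest TMM factor (0.730), and without it 25 genes were higher and 21 lower. Of the 8450 genes tested without that library, 1538 were higher and 1375 lower.

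The differences were set beside those of wider groups of other genes, which were not matched to the set on level. The median size of the log2 change of stage 3 against stage 2 was 0.39 over the 72 genes, against 0.17 over the 1621 other genes with at least 100 CPM in stage 1. It was 0.18 over the 5785 other genes whose mean over stages 2 to 4 lay within the range of the set, from 6.13 to 521 TMM-scaled CPM. Of those 1621 genes, 19.7% were higher and 20.9% lower in stage 3 than in stage 2, and of the 5785 genes 23.8% and 19.1%. These shares are given as a background and were not tested against that of the set. Log2 changes of the 72 genes ran from -2.37 to 1.18, and 2 were higher and 4 lower by at least 2-fold. The rule treats both stages alike, and the unequal ends of this range were not tested.

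The genes higher in stage 3 than in stage 2 were NCU07808, NCU08402, NCU07046, NCU04108, NCU00293, NCU02378, mig-12 (NCU09830), NCU06132, NCU08844, NCU04466, NCU06651, NCU00847, mig-5 (NCU01759), NCU03466, NCU04314, NCU03714, NCU08117, NCU08606, NCU03498, NCU06815, NCU02142, NCU06061, NCU09519, NCU07569 and NCU04207. Those lower in stage 3 were mig-6 (NCU09285), mig-3 (NCU04452), NCU02580, NCU05013, NCU07127, NCU00884, NCU07111, NCU05627, NCU09647, NCU03756, NCU02056, NCU06250, NCU06005, NCU01419, NCU09520, NCU00283, rad16 (NCU03650), ts (NCU01459), NCU06080, acd-1 (NCU02287), NCU07273, NCU09395, NCU09409 and NCU11260. The other 23 did not pass the test, and for 21 of them the log2 change lay between -0.28 and 0.25. The summed conidial markers were also lower in stage 3 than in stage 2, at 10.3 to 12.1 CPM against 97.6 to 102 CPM, with 4 of the 5 called lower and con-13 at 0. The part of these marker-bearing cells in the lower levels of the 24 genes was not tested.

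The largest rise in stage 3 against stage 2 was that of NCU04466 (chromosome IV, 3262395 to 3264360), which had 344, 335 and 353 CPM in stage 1, 34.4, 33.1 and 36.3 CPM in stage 2, 78.6, 84.7 and 80.4 CPM in stage 3 and 29.1, 36.6 and 31.6 CPM in stage 4. It averaged 70.8 ± 1.18 TMM-scaled CPM in stage 3 and 31.3 ± 1.06 in stage 2 (SD, n = 3 each), a log2 change of 1.18 ± 0.08 (log2, SE, edgeR adjusted p = 3.1e-07). NCU02378 (chromosome VII, 2704189 to 2707543) had 532, 619 and 545 CPM in stage 1, 24.5, 22.2 and 20.7 CPM in stage 2, 49.9, 45.8 and 48.3 CPM in stage 3 and 22.9, 22.2 and 20.3 CPM in stage 4. For both genes stage 3 was more than 2-fold above stage 2, with the libraries well apart. NCU02378 averaged 41.9 ± 2.70 TMM-scaled CPM in stage 3 and 20.4 ± 1.94 in stage 2 (SD, n = 3 each), a log2 change of 1.04 ± 0.09 (log2, SE, edgeR adjusted p = 2.0e-06). Next were NCU06061, NCU04314 and NCU06651, at log2 changes of 0.85 ± 0.10 (log2, SE, edgeR adjusted p = 2.5e-05), 0.79 ± 0.19 (log2, SE, edgeR adjusted p = 0.0043) and 0.78 ± 0.06 (log2, SE, edgeR adjusted p = 1.1e-06). In stage 3 the single libraries of NCU04314 had 38.7, 58.1 and 37.2 CPM, against 20.2, 29.6 and 24.4 CPM in stage 2, so that replicate 2 was the highest in both stages. Those of NCU06651 had 56.8, 63.8 and 56.5 CPM against 31.4, 34.4 and 33.5 CPM, a narrower spread.

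The largest fall was that of NCU07273 (chromosome IV, 4562261 to 4563309), which had 176.8, 105 and 114 CPM in stage 1, 9.09, 10.2 and 8.85 CPM in stage 2, 1.89, 1.71 and 2.01 CPM in stage 3 and 9.01, 10.1 and 8.26 CPM in stage 4. It averaged 1.63 ± 0.155 TMM-scaled CPM in stage 3 and 8.49 ± 0.729 in stage 2 (SD, n = 3 each), a log2 change of -2.37 ± 0.18 (log2, SE, edgeR adjusted p = 6.4e-07). Its fold change was 0.194, with all 3 libraries of stage 3 far below those of stage 2. The gene with the symbol ts (NCU01459, chromosome V, 4673281 to 4676687) had 151, 131 and 138 CPM in stage 1, 15.3, 13.6 and 14.8 CPM in stage 2, 5.41, 5.70 and 6.71 CPM in stage 3 and 12.5, 15.8 and 13.9 CPM in stage 4. It averaged 5.19 ± 0.597 TMM-scaled CPM in stage 3 and 13.2 ± 0.71 in stage 2 (SD, n = 3 each), a log2 change of -1.34 ± 0.10 (log2, SE, edgeR adjusted p = 6.3e-07). The abundant mig-6, with the library values above, averaged 267 ± 16.97 TMM-scaled CPM in stage 3 and 654 ± 14.004 in stage 2 (SD, n = 3 each), a log2 change of -1.29 ± 0.07 (log2, SE, edgeR adjusted p = 5.6e-08). NCU00884 (chromosome I, 6872527 to 6874636) had 558, 475 and 495 CPM in stage 1, 99.1, 92.1 and 100.4 CPM in stage 2, 41.8, 48.6 and 42.7 CPM in stage 3 and 94.3, 95.6 and 100.4 CPM in stage 4. All 4 genes were more than 2-fold lower in stage 3, and in each the highest library of stage 3 lay below the lowest of stage 2. NCU00884 averaged 38.7 ± 2.40 TMM-scaled CPM in stage 3 and 87.99 ± 3.31 in stage 2 (SD, n = 3 each), a log2 change of -1.19 ± 0.07 (log2, SE, edgeR adjusted p = 5.2e-08). It was followed by NCU05627, with 34.3, 38.8 and 36.6 CPM in stage 3 against 63.5, 58.4 and 70.3 CPM in stage 2 and a log2 change of -0.86 ± 0.15 (log2, SE, edgeR adjusted p = 6.2e-04).

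**Figure D3:**
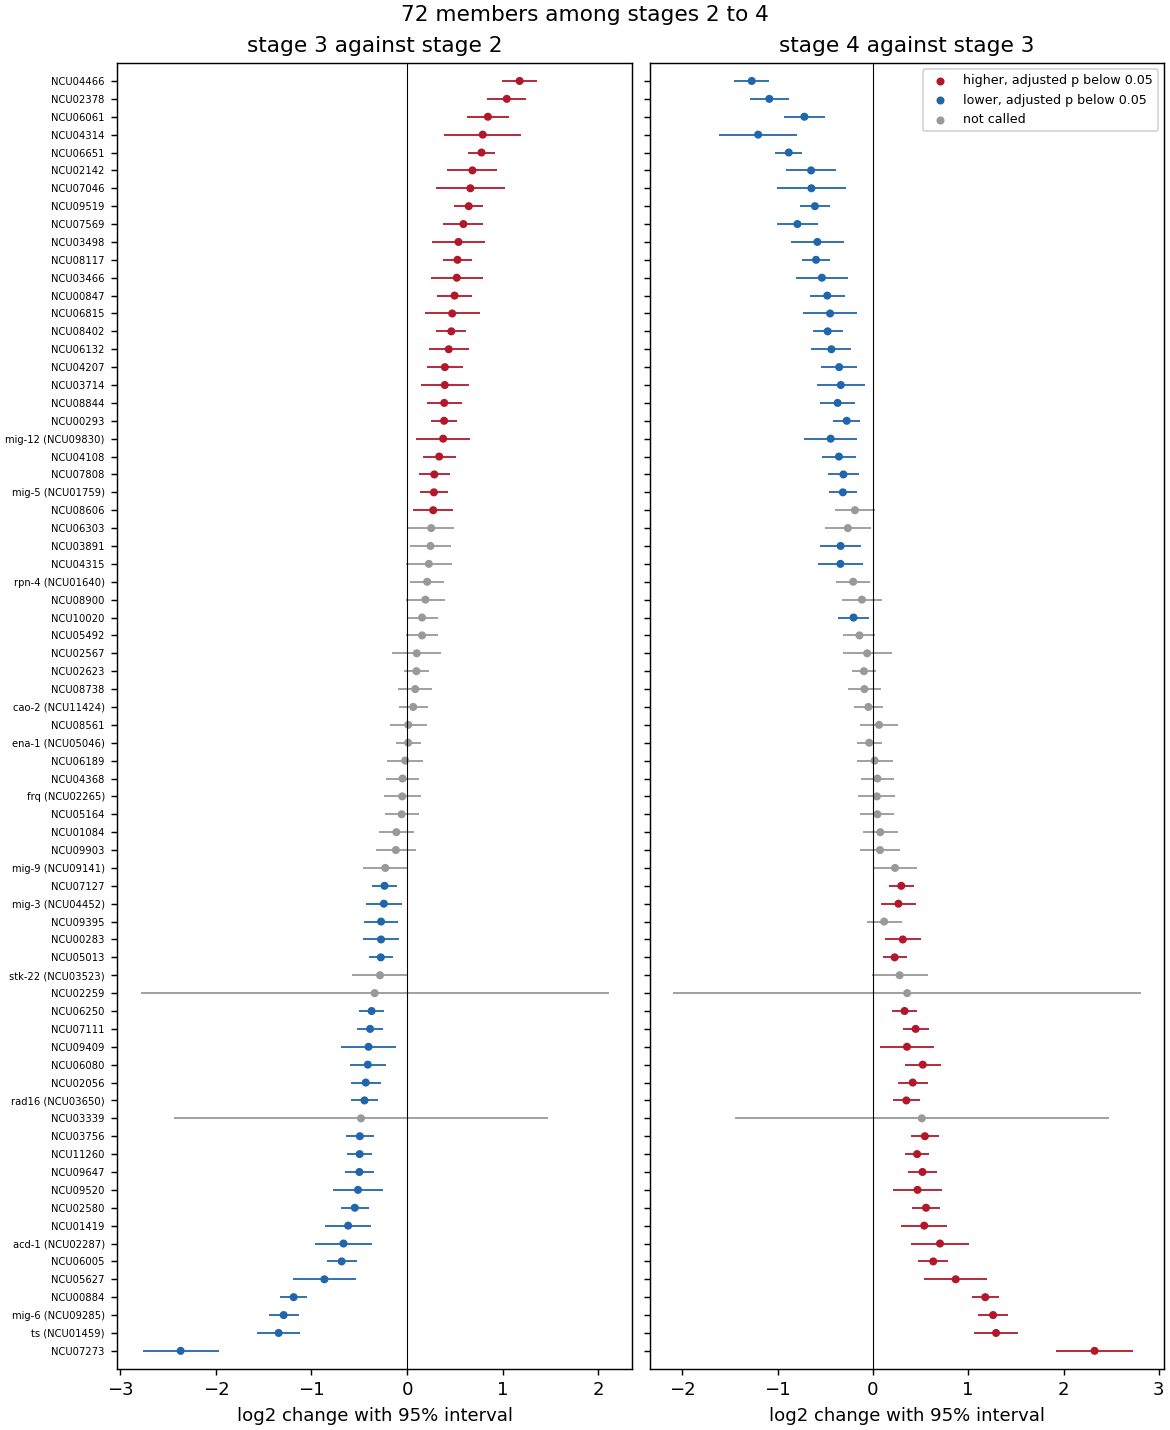
Log2 change (x axis, with its 95% interval) of each of the 72 genes in stage 3 against stage 2 (left) and stage 4 against stage 3 (right), in the same row order, where red marks genes called higher, blue genes called lower and grey genes not called. Left, 25 genes are higher and 24 lower, and right, 23 are higher and 27 lower. Of all genes tested, 20.8% are higher and 18.2% lower in the left comparison, and 18.2% and 20.8% in the right one. Both panels use the stage 3 libraries, and NCU03339 and NCU02259 have the widest intervals.

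In stage 4 against stage 3, 23 of the 72 genes (31.9%) were higher and 27 (37.5%) lower, where 18.2% of all genes tested were higher and 20.8% lower. This comparison uses the same stage 3 libraries as the one before, so its values are not independent of those above. The median log2 change was -0.04 over the 72 genes and -0.00 over all genes, and the range ran from -1.27 to 2.33. When libraries were scaled by their totals alone the split was 21 higher and 9 lower, and without stage 3 replicate 2 it was 21 higher and 25 lower. Over all genes tested, scaling by totals gave 1080 higher and 624 lower of 8330. Without stage 3 replicate 2 the counts were 1403 higher and 1568 lower of 8450. The libraries of both stages did not overlap in 52 of the 72 genes (72.2%) and in 52.1% of all genes tested.

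The largest rises in stage 4 against stage 3 were those of NCU07273 at 2.33 ± 0.19 (log2, SE, edgeR adjusted p = 7.9e-07), ts at 1.29 ± 0.10 (log2, SE, edgeR adjusted p = 9.0e-07) and mig-6 at 1.26 ± 0.07 (log2, SE, edgeR adjusted p = 7.4e-08). NCU00884 followed at 1.18 ± 0.07 (log2, SE, edgeR adjusted p = 5.7e-08) and NCU05627 at 0.87 ± 0.15 (log2, SE, edgeR adjusted p = 6.0e-04). In stage 4, mig-6 averaged 641 ± 57.4 TMM-scaled CPM, against 267 ± 16.97 in stage 3 (SD, n = 3 each). The largest falls were those of NCU04466 at -1.27 ± 0.08 (log2, SE, edgeR adjusted p = 1.7e-07), NCU04314 at -1.20 ± 0.19 (log2, SE, edgeR adjusted p = 2.4e-04) and NCU02378 at -1.09 ± 0.09 (log2, SE, edgeR adjusted p = 1.5e-06). NCU06651 followed at -0.88 ± 0.07 (log2, SE, edgeR adjusted p = 4.0e-07) and NCU07569 at -0.79 ± 0.10 (log2, SE, edgeR adjusted p = 3.4e-05). NCU07569 had 9.87, 11.1 and 10.9 CPM in stage 4 against 18.6, 20.2 and 18.4 CPM in stage 3, with stage 4 lower in every library.

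In stage 4 against stage 2, 0 of the 72 genes passed the threshold in either direction, as did 0% of all genes tested higher and 0% lower in edgeR. At an unadjusted p under 0.05, 1 of the 72 and 136 of the 8330 genes passed in edgeR, and the Wald test of DESeq2 called 0 of the 72 and 1 of the 8330 genes after adjustment. A fit of only the 6 libraries compared called 0 of the 72, and of the 7980 genes tested in it 1 was higher and 1 lower. Log2 changes of the set ran from -0.41, for NCU04314, to 0.13, for NCU06061, with a median of -0.01. The libraries did not overlap in 4 of the 72 genes (5.56%) and in 6.84% of all genes tested. In 69 of the 72 genes the mean CPM of stage 4 was within 10% of that of stage 2, and in 71 within 20%. For mig-6, for example, stage 4 had 666, 756 and 699.8 CPM against 718, 731 and 718 CPM in stage 2, a log2 change of -0.03 with a 95% interval of -0.18 to 0.12. For NCU04466 the log2 change was -0.09 with a 95% interval of -0.27 to 0.09, and for NCU07273 -0.04 with a 95% interval of -0.39 to 0.30.

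**Figure D4:**
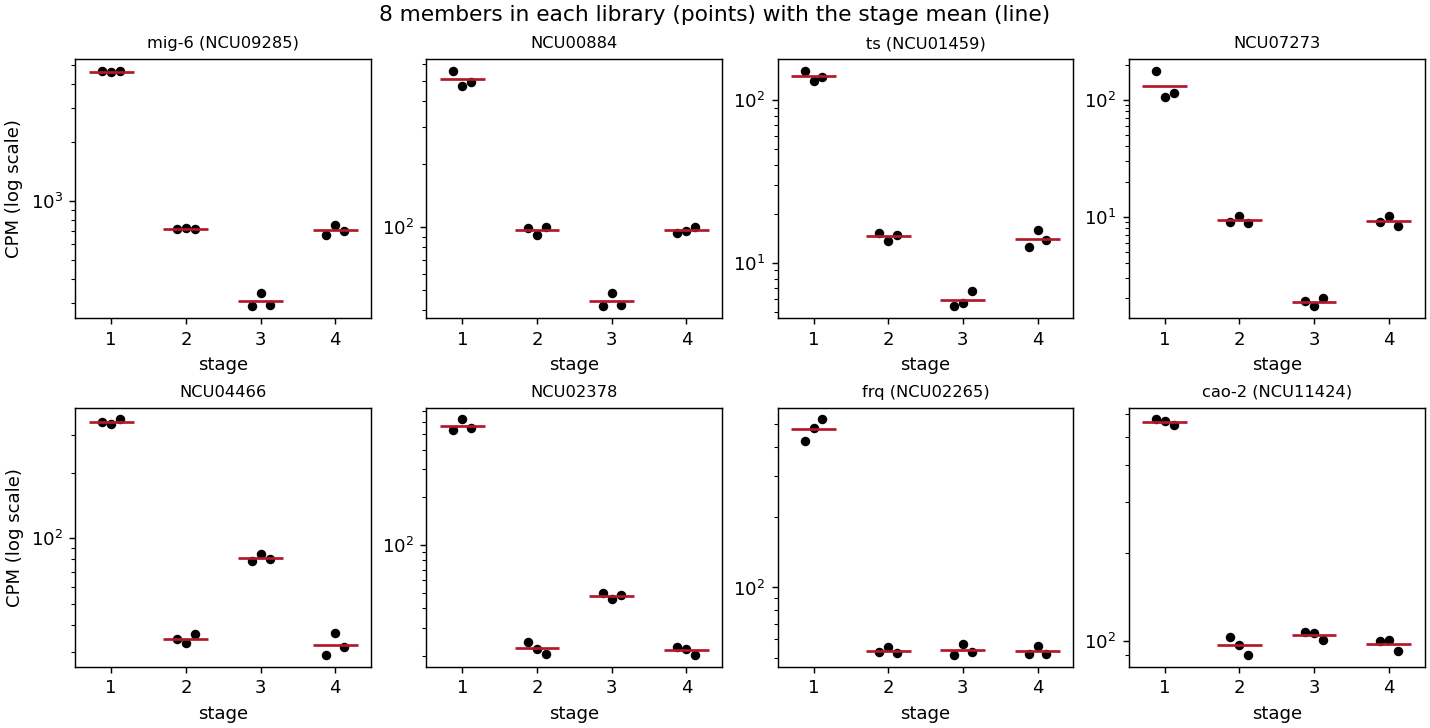
CPM (y axis, log scale) in each library (points) and the mean of each stage (line) over stages 1 to 4 (x axis) for 8 of the 72 genes. In mig-6, NCU00884, ts and NCU07273 stage 3 is the lowest stage, in NCU04466 and NCU02378 it is the highest of the later stages, and in frq and cao-2 the means of the later stages lie close together, at 53.3 to 53.8 CPM and 97.0 to 105 CPM.

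Of the 72 genes, 2 belong to the genes that the study assigned to secondary metabolism gene clusters (SMCs). NCU08402 (chromosome II, 3937327 to 3938667), at the edge of SMC no. 4 and listed by the study as a zinc-binding alcohol dehydrogenase, had 1695, 1645 and 1594 CPM in stage 1, 238, 250.2 and 234 CPM in stage 2, 348, 332 and 353 CPM in stage 3 and 223, 257 and 237 CPM in stage 4. Stage 3 stood above both neighbouring stages in every library, at 301 ± 15.01 TMM-scaled CPM in stage 3 and 218 ± 10.03 in stage 2 (SD, n = 3 each), a log2 change of 0.46 ± 0.07 (log2, SE, edgeR adjusted p = 2.3e-04). NCU05013 (chromosome VI, 4072537 to 4077061), a gene for a hypothetical protein in SMC no. 15, had 625, 624 and 664 CPM in stage 1, 157, 153 and 156 CPM in stage 2, 135, 138 and 126 CPM in stage 3 and 154, 142 and 155 CPM in stage 4. It ran the other way, with 116 ± 4.998 TMM-scaled CPM in stage 3 and 141 ± 1.78 in stage 2 (SD, n = 3 each), a log2 change of -0.27 ± 0.06 (log2, SE, edgeR adjusted p = 0.0024). Of the other SMC genes, 158 were below 100 CPM in stage 1, 16 kept a later mean above 1/4 and 1 fell further. Of all SMC genes 140 were tested. Of these, 46 were higher and 19 lower in stage 3 than in stage 2, and 21 were higher and 45 lower in stage 4 than in stage 3. Over all genes tested the shares were 20.8% higher and 18.2% lower in the first of these comparisons, and 18.2% and 20.8% in the other.

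None of the 20 genes found from a list for conidiation met the rule: 5 fell further (eas, the hydrophobin of the conidial coat, con-6, con-8, con-10 and ccg-1), 5 kept more than 1/4 and 10 were below 100 CPM in stage 1. In stage 3 against stage 2, 4 of these 20 were higher and 7 lower, and in stage 4 against stage 3, 8 were higher and 4 lower. Of 6 antioxidant genes only the catalase gene cat-2 fell further and none met the rule, with 3 higher and 3 lower in both comparisons. Of 6 genes for trehalose and glycogen none met the rule, and 3 were higher in stage 3 than in stage 2 and 3 lower in stage 4 than in stage 3. Of 7 genes for the glyoxylate cycle and gluconeogenesis none met it, with 4 higher and 1 lower in stage 3 than in stage 2 and 1 higher and 4 lower in stage 4 than in stage 3. For each of these lists the background is 20.8% higher and 18.2% lower genes in stage 3 against stage 2, and 18.2% higher and 20.8% lower in stage 4 against stage 3. With 6 to 20 genes a list, nothing is read from these counts.

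The 72 genes lay on all 7 chromosomes: 11 on chromosome I, 9 on II, 8 on III, 9 on IV, 15 on V, 8 on VI and 12 on VII. As shares, chromosome I held 15.3% of the set and 24.1% of all protein-coding genes, and chromosome VII 16.7% and 10.7%. The gene spans ran from 898 to 5640 bases with a median of 2306 bases. The median was 2600 bases for the 1687 protein-coding genes with at least 100 CPM in stage 1. Genes of the set neighbour each other at 2 places. NCU09520 and NCU09519 lie 142 bases apart on chromosome III, 23389 to 30638, and NCU04314 and NCU04315 lie 563 bases apart on chromosome V, 5587099 to 5592715.

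The first pair moved in opposite directions. NCU09520 had 145, 193 and 169.8 CPM in stage 1, 28.1, 28.5 and 29.7 CPM in stage 2, 20.4, 19.8 and 22.4 CPM in stage 3 and 28.9, 23.1 and 31.9 CPM in stage 4, with stage 3 lower than stage 2 at -0.51 ± 0.12 (log2, SE, edgeR adjusted p = 0.004). NCU09519 had 127, 117 and 116 CPM in stage 1, 11.5, 12.6 and 13.5 CPM in stage 2, 18.8, 20.5 and 21.8 CPM in stage 3 and 13.8, 11.6 and 13.3 CPM in stage 4, with stage 3 higher than stage 2 at 0.64 ± 0.07 (log2, SE, edgeR adjusted p = 1.2e-05). Stage 3 thus separated from both other later stages in each gene, below them in NCU09520 and above them in NCU09519. In the second pair NCU04314 was higher in stage 3 and NCU04315 was not called, at 0.23 ± 0.11 (log2, SE, edgeR adjusted p = 0.12).

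For 9 genes the annotated span overlaps another gene, so that reads in the shared stretch could have been assigned to either where strand does not separate them. NCU07127, listed above as lower in stage 3, shares 2995 bases of its span with NCU07126. Mean levels in stages 1 to 4 were 571, 90.5, 79.7 and 94.5 CPM for NCU07127. For NCU07126 they were 52.0, 51.9, 185 and 49.0 CPM, so that it was the higher of the pair in stage 3. The part of read assignment in the lower level of NCU07127 was not tested. NCU09409 shares all its 1190 bases with NCU09408, at 20.5 CPM in stage 1. The overlap is 1622 bases for mig-6, with NCU12058 at 2.80 CPM in stage 1. It is 819 bases for NCU05164, 652 for NCU02567 (with NCU02566, at 997 CPM), 400 for NCU01419, 136 for NCU04314, 123 for NCU02259 and 62 for NCU03756 (with NCU03757, at 2657 CPM). Without these 9, stage 3 against stage 2 gave 24 higher and 19 lower genes, where 20.8% of all genes tested were higher and 18.2% lower.

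The spread between replicates was wider in stage 1, where the median coefficient of variation over the 72 genes was 8.70%, than in stages 2, 3 and 4, where it was 4.94%, 6.24% and 6.81%. Stage 1 was also the widest over the 1692 genes with at least 100 CPM in stage 1 and counts in every library. Their medians were 7.15%, 2.83%, 6.17% and 4.60% in stages 1 to 4. In stage 1, replicate 1 was the highest of the 3 libraries in 35 genes and the lowest in 26. Across genes, log-scale profiles of that library correlated with replicates 2 and 3 at 0.9930 and 0.9937, and those of replicates 2 and 3 with each other at 0.9969. In 2 genes the replicates were far apart. NCU03339 (chromosome II, 1044478 to 1046785) had 1318, 191 and 167 CPM in stage 1, 181, 33.1 and 189 CPM in stage 2, 209, 44.9 and 40.4 CPM in stage 3 and 34.9, 181 and 194 CPM in stage 4. Its stage 1 mean rests on replicate 1, and the later libraries split into 5 between 181 and 209 CPM and 4 between 33.1 and 44.9 CPM, both kinds in every stage, while the flanking gene NCU03340 stayed between 435 and 506 CPM in the same 9 libraries. NCU02259 had 112, 127 and 135 CPM in stage 1, 35.4, 33.2 and 1.51 CPM in stage 2, 0.628, 24.9 and 32.6 CPM in stage 3 and 0.776, 34.7 and 36.1 CPM in stage 4. In each later stage 1 library had at most 1.51 CPM and the other libraries had 24.9 to 36.1 CPM, while NCU02258, which overlaps it, stayed between 12.98 and 22.5 CPM. Neither gene was called in any comparison, with standard errors of 0.91 and 1.13 on the log2 scale for stage 3 against stage 2.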

How the data were processed

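RNA was measured in 12 libraries, 3 for each of 4 stages of conidial germination. As the labels and the methods of the study state, poly(A) RNA was made into stranded libraries, and the authors aligned trimmed reads to the OR74A genome, version 12, with HISAT2 2.1.0 (CASAVA 1.8.2 before it) and counted them per gene with StringTie 1.3.3b. The deposited table holds the authors' estimated counts (expected counts as whole numbers, derived from coverage), not normalized. A second deposited table holds only the authors' own fold estimates, with interval widths, an acceptance ratio and a log-likelihood, and was not used. Because counts come from coverage, precision is not that of single reads, and the floor of 3 counts was 0.0449 to 0.0710 CPM.

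Levels are CPM as defined in the report. Tests used edgeR 4.0.16 (limma 3.58.1, R 4.3.3): counts, already whole, were filtered (minimum count 10, minimum total 15), scaled by TMM and fitted with the quasi-likelihood model over all 12 libraries, with Benjamini-Hochberg adjustment over 8330 genes. Standard errors are the size of a log2 change over the root of its F statistic. The test was tried on simulated counts. Symbols and coordinates come from RefSeq (NC12), where 10590 of 10592 IDs were found. Tables and figures used Python 3.11.15, pandas 2.3.3, numpy 2.4.6, scipy 1.17.1 and matplotlib 3.10.9. Lists were matched by symbol only.

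The members and gene lists were chosen with earlier results of these data known. Genes were named by rule: the 10 highest by stage 1 mean and by that mean per 1000 bases; the 3 nearest each bound on both sides; per contrast the 5 largest rises and falls among called genes whose libraries did not overlap; members in a list or SMC; and neighbouring members. NCU03339 and NCU02259 and the members with a symbol outside these lists were named after their values were seen. No labels say that replicates share a culture, and p-values measure the spread between these samples. Alternatives were DESeq2 size factors, library totals, rRNA left out, no filter, DESeq2 1.42.0, a replicate block, only the 6 libraries compared, each library left out, and other scalings of the rule.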

Additional observations from a re-analysis of the deposited data

How the results depend on the processing

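Among the counts of genes higher or lower, 2 moved by more than 1.5 times, both when libraries were scaled by their totals alone. The genes higher in stage 3 than in stage 2 numbered 9 instead of 25, and those lower in stage 4 than in stage 3 numbered 9 instead of 27. Over all 8330 genes tested these 2 counts were 625 instead of 1732 and 624 instead of 1736. That scaling moved the median log2 change of all genes to -0.10 for stage 3 against stage 2 and to 0.13 for stage 4 against stage 3, and against those medians the set's own medians were -0.06 and 0.10. Every other alternative stayed within 1.5 times, DESeq2 giving 25 higher and 24 lower, then 24 and 27, and 0 in stage 4 against stage 2. Over all 8330 genes DESeq2 gave 1744 higher and 1743 lower, then 1823 and 1730, and 0 and 1 in stage 4 against stage 2. Leaving out each library in turn gave 20 to 25 higher and 21 to 26 lower in stage 3 against stage 2. It gave 21 to 25 higher and 21 to 26 lower in stage 4 against stage 3, and 0 in stage 4 against stage 2. Over the 8401 to 8453 genes then tested, stage 3 against stage 2 gave 1240 to 1715 higher and 1266 to 2035 lower. Stage 4 against stage 3 gave 1255 to 2050 higher and 1292 to 1736 lower. Stage 4 against stage 2 gave at most 1 either way. Over 17 other ways of applying the rule the set numbered 70 to 83 genes; 62 of the 72 were kept in all of them, and 10 were lost in at least 1, among them NCU03339 and NCU04368 in 5 each. Libraries of the same number showed no clear joint deviation (correlations of -0.37 to 0.23, median 0.04, against -0.30 to 0.36 for other numbers). These deviations were taken from means of 3 libraries, so they cannot exclude a pairing by number. With a replicate block 27 were higher and 25 lower in stage 3 against stage 2, beside 1666 and 1462 of all 8330 genes. That fit gave 23 and 27 in stage 4 against stage 3, beside 1470 and 1698 of all 8330 genes. In stage 4 against stage 2 it gave 0 in the set and 0 over all genes. The count without the 9 overlapping genes was an alternative chosen after seeing the data. Each of the 20 named changes kept its direction and its side of the threshold in 19 alternatives. These changes were chosen as the largest called ones in the same libraries, and both comparisons use the stage 3 libraries. Their persistence follows largely from that choice and is no independent support. With 3 libraries a stage, small differences may go undetected.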
